A study of Mus musculus with 15 samples.

Results

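Egr1, Egr2, Egr3, Egr4, Klf2, Klf4, Klf6, Nr4a1, Ier2 and Ier3 are 10 early-response genes among the 31017 gene symbols counted in 15 RNA immunoprecipitation (RIP) libraries of mouse. They were selected by name with measured values of these libraries known, the genotype comparisons of the Dnmt1 RIP among them. Their values in those comparisons are therefore descriptions and carry no test. The series asked how a dominant mutation of Dnmt1, the enzyme that copies DNA methylation at replication, alters RNA bound by the protein and RNA carrying 5-methylcytosine (m5C). Tail fibroblast lines came from heterozygous (Het), homozygous (Hom) and wild type (WT) littermates of one sex. The Dnmt1 RIP used a rabbit antibody against Dnmt1 on formaldehyde-fixed fibroblasts, with 2 libraries each from Het, Hom and WT. The m5C RIP used an antibody against 5-methylcytosine on messenger RNA, with 1 Het, 1 Hom and 2 WT libraries from fibroblasts and 1 library per genotype from cortex. Each tissue also has 1 library titled input, with no genotype, whose antibody label names IgG. The mutated residue, the strain, the age and the number of lines or animals behind a library were not stated in the labels.

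Total counts in genes were 804887 to 814262 in the Het, 1029457 to 1362757 in the Hom and 217173 to 463133 in the WT Dnmt1 RIP libraries. They were 725824 to 2163814 in the fibroblast m5C RIP, 1310590 to 2408694 in the cortex m5C RIP, 228852 in fibroblast input and 4913482 in cortex input. Levels are a gene's counts scaled to the library's total in genes (CPM). In Hom Dnmt1 RIP library 1, 63.5% of counts lay in Lars2, Gm42418, Gm26917 and Gm10800, and in fibroblast input 58.4% did. No gene of the 31017 had fewer counts in fibroblast m5C WT library 1 than in the fibroblast m5C Hom library, and of the 19511 genes with a count in Hom, 7163 had the same count in both. The m5C RIP summaries below that use both libraries are therefore also given without WT library 1 or with the Hom counts subtracted from it. Dnmt1 RNA itself was at 1506 and 2018 CPM in Het, 903 and 8868 CPM in Hom and 2427 and 2943 CPM in WT Dnmt1 RIP libraries. In fibroblast m5C RIP it was at 8797 CPM in WT library 1. The others held 600 CPM (WT library 2), 396 CPM (Het) and 694 CPM (Hom), and the cause was not tested. Summed over 12 fibroblast markers, the level was 563 to 16961 CPM in the Dnmt1 RIP, 23395 to 34569.7 CPM in fibroblast m5C RIP and 627 to 686 CPM in cortex m5C RIP. The 11 neuron markers summed to 1966 to 5263 CPM in the Dnmt1 RIP, 556 to 1010 CPM in fibroblast m5C RIP and 9192 to 9546 CPM in cortex m5C RIP. Fibroblast m5C RIP also held 7222 to 13528 CPM of 12 macrophage markers.

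Early-response genes are transcribed within minutes of a stimulus, without new protein synthesis, and most encode transcription factors that set off a second wave of genes. Growth factors, stress, shear and, in neurons, synaptic activity induce them through serum response factor, which binds the CArG box with its Elk partners, and through CREB, which binds cyclic AMP response elements. Egr and Klf proteins are zinc finger factors that bind GC-rich DNA, and Nr4a1 is an orphan nuclear receptor. In cortex the Egr genes and Nr4a1 are standard markers of neuronal activity.

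Upstream sequence was available from RefSeq (GRCm38.p6) for 7 of the 10 genes, Klf2, Klf4, Klf6, Ier3, Egr2, Egr4 and Nr4a1, and none is shown for Egr1, Egr3 or Ier2. The stretches are shown because these genes differ in the elements known from early-response promoters. Each starts 250 bases before a RefSeq start and runs to that start, or to an annotated exon that begins before it. All are on the gene's own strand, 5′ to 3′. The Nr4a1 stretch and both Egr2 CArG boxes lie inside the gene as annotated in GENCODE M21, past its first annotated base. Capitals mark TGACG (the core of the cyclic AMP response element) and TATAA, each searched on both strands. For Egr2 only the 30 bases around its CArG boxes are shown, and there the capitals mark the CArG box.
Klf2, chr8:72318812-72319032, plus strand: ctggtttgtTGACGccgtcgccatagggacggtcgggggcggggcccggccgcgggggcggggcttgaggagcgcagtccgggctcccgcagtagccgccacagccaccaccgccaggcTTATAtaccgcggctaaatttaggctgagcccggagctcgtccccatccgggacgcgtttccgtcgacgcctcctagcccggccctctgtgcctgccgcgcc
Klf4, chr4:55532476-55532725, minus strand: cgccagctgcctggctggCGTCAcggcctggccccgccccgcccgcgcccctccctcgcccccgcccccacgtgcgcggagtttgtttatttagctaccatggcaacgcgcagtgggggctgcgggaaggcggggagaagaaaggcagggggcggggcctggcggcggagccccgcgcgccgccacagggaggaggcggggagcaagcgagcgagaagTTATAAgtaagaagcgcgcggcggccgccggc
Klf6, chr13:5861239-5861481, plus strand: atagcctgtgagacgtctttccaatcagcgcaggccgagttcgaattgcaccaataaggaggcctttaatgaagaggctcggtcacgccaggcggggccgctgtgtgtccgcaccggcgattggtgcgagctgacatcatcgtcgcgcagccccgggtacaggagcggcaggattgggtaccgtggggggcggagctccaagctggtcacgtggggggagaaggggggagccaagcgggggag
Ier3, chr17:35821463-35821683, plus strand: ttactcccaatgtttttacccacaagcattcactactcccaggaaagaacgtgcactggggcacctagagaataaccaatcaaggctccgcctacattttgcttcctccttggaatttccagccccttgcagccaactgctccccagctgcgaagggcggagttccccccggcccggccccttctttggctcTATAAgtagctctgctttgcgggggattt
Egr4, chr6:85513590-85513839, minus strand: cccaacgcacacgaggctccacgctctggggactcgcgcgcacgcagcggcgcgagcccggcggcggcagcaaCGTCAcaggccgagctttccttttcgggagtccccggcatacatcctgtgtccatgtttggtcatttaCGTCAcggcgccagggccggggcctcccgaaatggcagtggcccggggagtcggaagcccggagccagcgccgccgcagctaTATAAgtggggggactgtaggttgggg
Nr4a1, chr15:101266596-101266845, plus strand: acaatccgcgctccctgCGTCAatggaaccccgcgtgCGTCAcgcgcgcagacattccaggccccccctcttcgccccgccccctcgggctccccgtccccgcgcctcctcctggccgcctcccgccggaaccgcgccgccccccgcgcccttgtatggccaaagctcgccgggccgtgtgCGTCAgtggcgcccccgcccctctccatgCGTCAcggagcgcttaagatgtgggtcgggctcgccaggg
Egr2, first CArG box, chr10:67537484-67537513, plus strand: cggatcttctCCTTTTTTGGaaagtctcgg
Egr2, second CArG box, chr10:67537787-67537816, plus strand: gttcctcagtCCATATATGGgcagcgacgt

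In windows from 250 bases before to 50 bases after the start, TGACG or its complement occurred 4 times for Nr4a1, 2 times for Egr4 and 1 time each for Klf2 and Klf4, against none for Klf6 and Ier3. The 5 windows of Egr2 held it 0 to 2 times. Of 32544 windows of the same length, 20.91% held it. TATAA lay 131 bases and again 29 bases upstream of the Klf2 start, 58 bases upstream of the Ier3 start, 27 bases upstream of the Egr4 start and 32 bases upstream of the Klf4 start, and 1 Egr2 window also held it. The Klf2 match nearest the start lies past the end of the stretch shown. Of all windows 24.82% held TATAA. A CArG box was found in Egr2 windows alone among the 7 genes, and in 1.641% of all windows. The GC box GGGCGG, a form bound by Klf and Sp factors, was found in the windows of Klf2, Klf4, Klf6, Ier3, Nr4a1 and Egr2 and in 35.88% of all. Each element was counted on its own, overlaps included. The windows of Klf4 and Nr4a1 were 74.3% and 72.3% G and C, against a median of 53% over all windows.

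Ordered by level per kb of exon, the 10 genes stood in 3 different orders in the 3 kinds of RIP. In fibroblast m5C RIP (4 libraries), Klf2, Ier2 and Ier3 led with medians of 134, 115 and 109 CPM per kb. Their ranges of 86.8 to 173, 44.0 to 167 and 87.0 to 121 CPM per kb overlapped, so the order among these 3 is not resolved. Egr1 followed at 81.6 and Klf6 at 49.97 CPM per kb, and the range of Egr1 (41.8 to 118) overlapped both Ier3 and Klf6. Nr4a1 at 23.8, Egr2 at 18.4 and Klf4 at 16.9 CPM per kb lay below Klf6 in every library and overlapped each other. Egr3 at 9.84 and then Egr4 at 3.81 CPM per kb came last, with no overlap between them or with Klf4. The highest Egr3 library (12.8) overlapped the lowest of Egr2 (11.03 CPM per kb), so these 2 are not resolved. In cortex m5C RIP (3 libraries) Egr1 led at 71.2 CPM per kb, with no overlap with Nr4a1 at 38.2 and Egr3 at 30.2 CPM per kb, which overlapped each other. Egr4 (13.5) and Klf6 (13.3 CPM per kb) overlapped, and the WT library of Egr4 (36.9) also overlapped Egr3 and Nr4a1. Klf2, Egr2, Klf4, Ier2 and Ier3 had medians at or below 7.02 CPM per kb, and the highest Klf2 library (9.89) overlapped the lowest of Klf6 (9.04 CPM per kb). In the Dnmt1 RIP (6 libraries) Ier2 (35.3) and Egr1 (32.3 CPM per kb) had the highest medians, and Egr2 (6.63 CPM per kb) the lowest. Ier2 ranged there from 3.83 to 111 CPM per kb, so that neighbours in this order all overlapped. Fewer cells of a type and less RNA per cell cannot be told apart in these bulk libraries, and without an input per genotype neither can RNA recovered and RNA present.

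**Figure D1:**
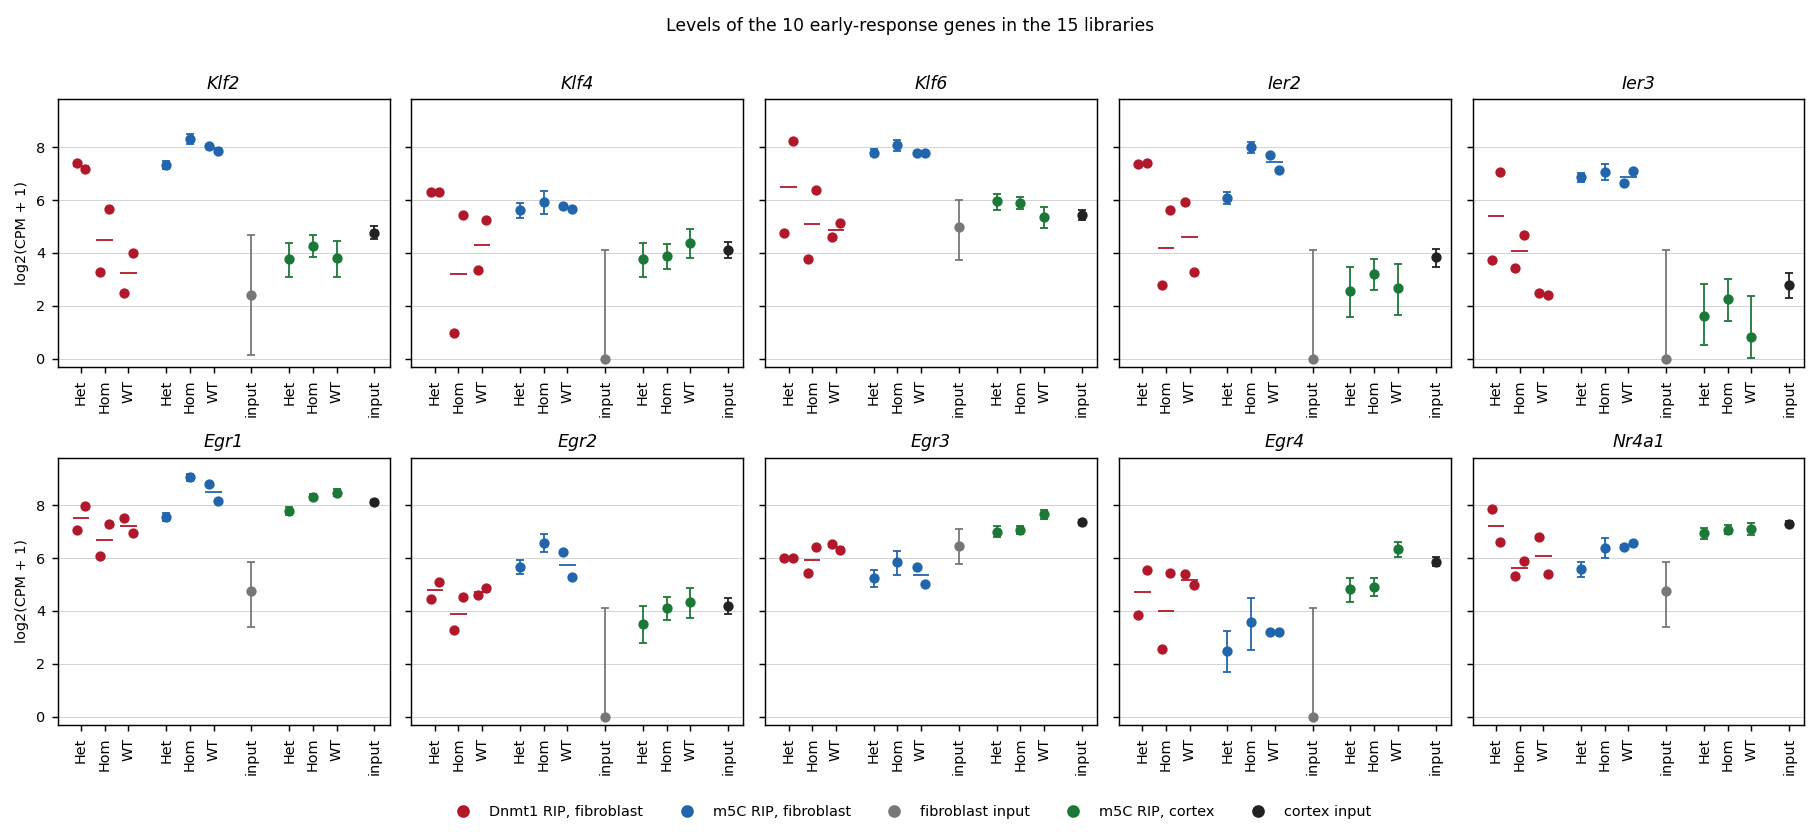
Levels of the 10 genes as log2(CPM + 1) in all 15 libraries, by RIP, tissue and genotype; points are libraries, horizontal lines are means of 2 libraries, and bars on lone libraries are 95% exact Poisson intervals, which cover counting error only. Klf2, Ier2 and Ier3 were high in fibroblast m5C RIP and low in cortex, Egr3 and Egr4 the reverse, and 5 genes had 0 counts in fibroblast input.

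The Dnmt1 RIP was first read for the Klf genes. Klf2 (chromosome 8, 72319033 to 72321656, plus strand; mm10, GENCODE M21), a factor induced by shear stress that keeps endothelial and T cells quiescent, was at 169 and 142 CPM in Het libraries, 8.74 and 49.9 CPM in Hom and 4.605 and 15.1 CPM in WT. Both Het libraries stood above all others, although the WT values rest on 1 and 7 counts (95% exact Poisson intervals 0.117 to 25.7 and 6.08 to 31.1 CPM). Its log2 fold change was 3.84 ± 0.69 for Het over WT (SE, n = 2 each), 1.56 for Hom over WT and -2.28 ± 0.56 for Hom over Het. Klf4 (chromosome 4, 55527143 to 55532466, minus strand), a reprogramming and epithelial differentiation factor, was at 78.6 and 78.3 CPM in Het, 0.971 and 42.6 CPM in Hom and 9.21 and 36.7 CPM in WT. The Het libraries were nearly equal and stood above both other groups, with a log2 fold change of 1.64 ± 0.89 over WT. Without WT library 1 this was 1.03 and without WT library 2 it was 3.43. The Hom pair differed 43.8-fold, and library 1 held 1 count. Klf6 (chromosome 13, 5861482 to 5870394, plus strand), induced by tissue injury, was at 25.8 and 302 CPM in Het, 12.6 and 82.9 CPM in Hom and 23.0 and 34.5 CPM in WT. Only Het library 2 and, less so, Hom library 2 were high, so Het and WT overlapped. Its log2 fold change of 2.28 ± 0.90 was 0.12 without Het library 2.

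The Ier genes split in the same way. Ier2 (chromosome 8, 84661331 to 84662852, minus strand), a nuclear protein gene with a single exon, was at 162 and 169 CPM in Het, 5.83 and 47.7 CPM in Hom and 59.9 and 8.64 CPM in WT. Het libraries stood above all others, by 2.62 ± 0.74 over WT and with -2.50 ± 0.67 for Hom over Het on the log2 scale. The value over WT was 4.18 without WT library 1 and 1.83 without WT library 2. Ier3 (chromosome 17, 35821684 to 35822923, plus strand), a stress-induced regulator of cell survival, was at 12.3 and 133 CPM in Het, 9.71 and 24.9 CPM in Hom and 4.605 and 4.32 CPM in WT. Here Het library 2 was far above the rest, and the WT values are 1 and 2 counts. Its log2 fold change for Het over WT was 3.83 ± 1.07, and 1.77 without Het library 2. For Hom over WT it was 2.26.

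Among the Egr genes the Dnmt1 RIP showed small differences between genotypes. Egr1 (chromosome 18, 34859823 to 34864984, plus strand), the growth-factor-induced founder of the family, was at 133 and 247 CPM in Het, 67.0 and 157 CPM in Hom and 180 and 121 CPM in WT. All 3 groups overlapped, with 0.40 ± 0.40 for Het over WT. Egr2 (chromosome 10, 67535475 to 67542188, plus strand), which directs myelination by Schwann cells, was at 20.9 and 33.5 CPM in Het, 8.74 and 22.01 CPM in Hom and 23.0 and 28.1 CPM in WT. Het overlapped both other groups, while both Hom libraries lay below both WT libraries. Egr3 (chromosome 14, 70077203 to 70082614, plus strand), needed for muscle spindles, was at 62.6 and 63.4 CPM in Het, 42.7 and 84.4 CPM in Hom and 92.1 and 77.7 CPM in WT. It was the member with both Het libraries below both WT libraries, with -0.33 ± 0.41 for Het over WT. Egr4 (chromosome 6, 85511121 to 85513589, minus strand), a family member known mainly from neurons, was at 13.5 and 46.0 CPM in Het, 4.86 and 42.6 CPM in Hom and 41.4 and 30.2 CPM in WT. The 2 libraries of its Hom pair differed 8.76-fold, and its groups overlapped. Nr4a1 (chromosome 15, 101254269 to 101274795, plus strand), the orphan receptor, was at 229.7 and 95.7 CPM in Het, 38.9 and 58.7 CPM in Hom and 111 and 41.0 CPM in WT. In contrast to Klf6 and Ier3 its highest library was Het library 1, and its log2 fold change of 1.42 ± 0.63 for Het over WT was 0.33 without that library.

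Over the 10 genes, all of which passed the filter on low counts, 8 had a positive log2 fold change for Het over WT, with a median of 1.53 against 0.03 over all genes tested. Klf2, Klf4, Ier2 and Ier3 had both Het libraries above both WT libraries, 4 of 10, against 15.3% of the 13589 genes tested. For Hom over Het 1 of 10 was positive and the median was -1.44, against -0.02 over all genes. Klf2, Klf4, Ier2 and Nr4a1 had both Hom libraries below both Het libraries, 4 of 10, against 20.1% of genes. With Lars2, Gm42418, Gm26917 and Gm10800 left out of the totals, Nr4a1 overlapped. It was then at 106 CPM in Hom library 1 and 101.5 CPM in Het library 2. The share over all genes was not counted with those totals. The comparisons of Het over WT and Hom over Het share the Het libraries. Without Het library 2, 4 of 10 were positive for Hom over Het and the median was -0.32. For Hom over WT 6 of 10 were positive with a median of 0.01. Scaling to total counts alone moved the median of all genes to -0.37 in that comparison, and 3 of 10 members were then positive with a median of -0.32. By edgeR's quasi-likelihood test with Benjamini-Hochberg adjustment, 0% of 13589 genes were called in each comparison, none of the members among them. Without adjustment, 868 genes were under 0.05 for Het over WT, 310 for Hom over WT and 629 for Hom over Het, and DESeq2 called 26 and 15 genes in the first and the last. With no filter on low counts 192 genes were called for Het over WT and 113 for Hom over Het, members among both. Since the members were chosen with these comparisons known, nothing is read from their shares or from their calls under any setting.

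**Figure D2:**
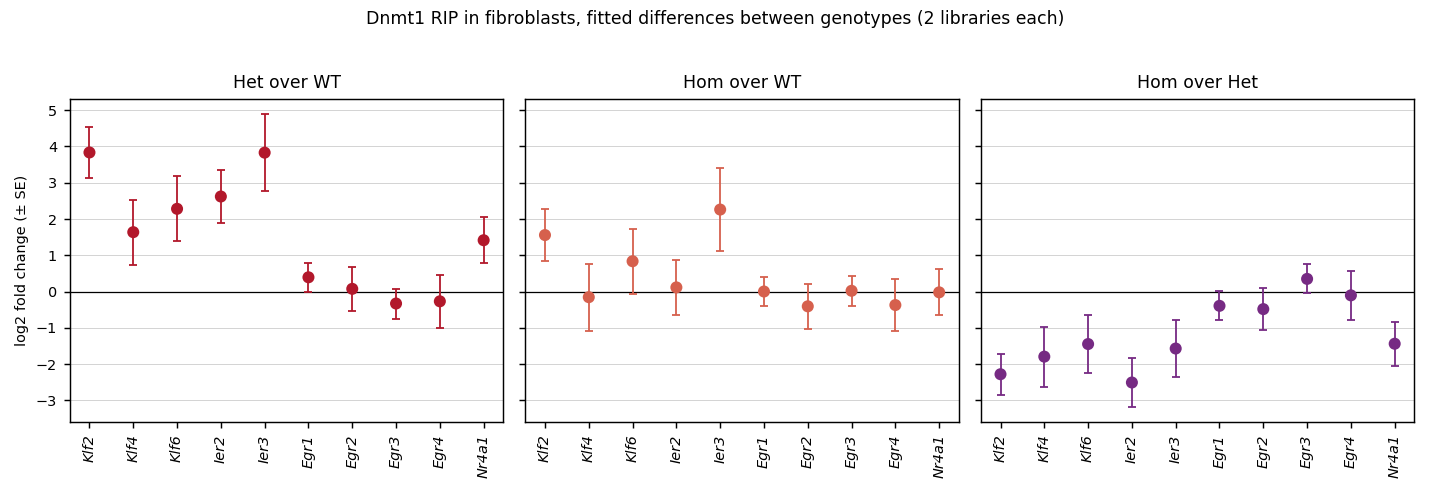
Log2 fold changes of the 10 genes between genotypes in the Dnmt1 RIP, from the fit of 6 libraries; points are estimates and bars are 1 SE, with 2 libraries per genotype. Klf2, Ier2, Ier3 and Klf6 had the highest estimates for Het over WT (2.28 to 3.84), and the Egr genes lay within 0.40 of 0. Hom over WT ran from -0.41 for Egr2 to 1.56 for Klf2 and 2.26 for Ier3.

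Fibroblast markers, like the sum of the members, were highest in both Het libraries of the Dnmt1 RIP. Macrophage markers were highest in Het library 2, but lower in Het library 1 than in library 2 of Hom and WT. Fibroblast markers summed to 16961 and 8896 CPM in Het, 563 and 2841 CPM in Hom and 958 and 2073 CPM in WT. All 11 that passed the filter had a positive estimate for Het over WT (median 1.66 on the log2 scale). Macrophage markers summed to 181 and 5136 CPM in Het, 86.5 and 1039 CPM in Hom and 129 and 1127 CPM in WT. C1qb, Lyz2, Fcer1g, Cd14 and Aif1 were at 0 counts in WT library 1, and C1qa and Cd14 in Hom library 1. The macrophage sum was thus high in Het library 2, where Klf6 and Ier3 were high. In Het library 1 it was low, with Csf1r at 33.2 CPM against 46.0 and 45.3 CPM in WT and C1qb at 9.82 CPM against 0 and 64.8 CPM in WT, while Klf2, Klf4 and Ier2 were about as high there as in library 2. Neuron markers summed to 2784 and 3348 CPM in Het, 1966 and 3362 CPM in Hom and 5263 and 3057 CPM in WT. The part of these cell types in the members' differences was not tested. The sum over the 10 genes was 908 and 1310 CPM in Het, 200.1 and 613 CPM in Hom and 548 and 397 CPM in WT. With Lars2, Gm42418, Gm26917 and Gm10800 left out of the totals, the sum was 1235 and 1389 CPM in Het, 548 and 702 CPM in Hom and 616 and 532 CPM in WT, so the lowest Hom library then lay within the WT range.

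**Figure D3:**
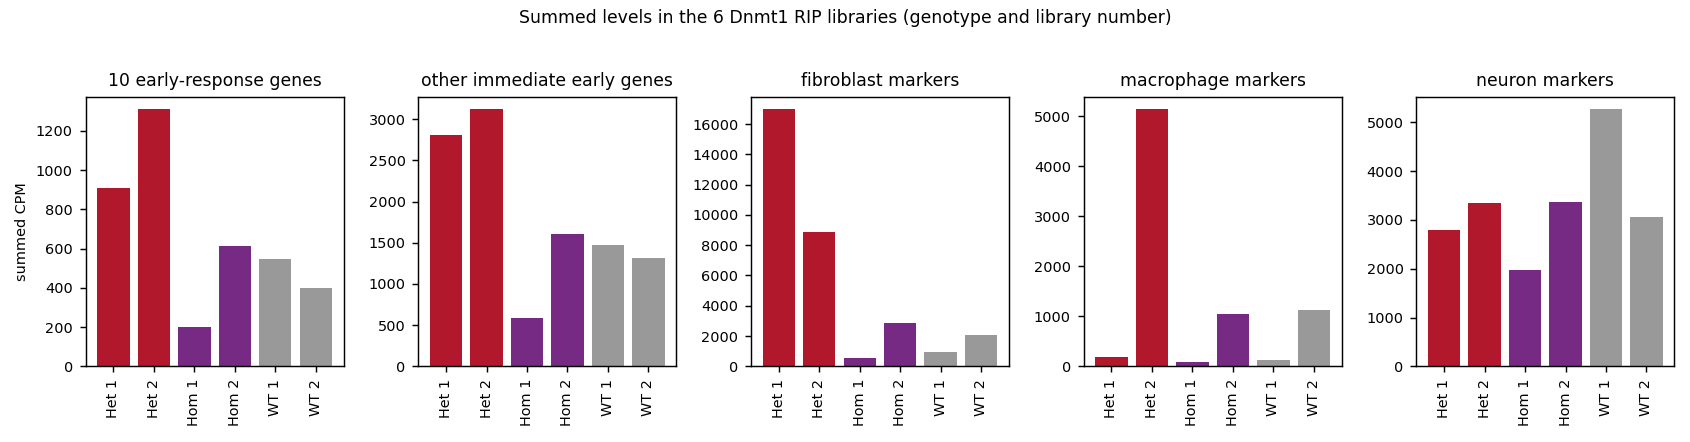
Summed CPM of the 10 genes, 32 other immediate early genes and fibroblast, macrophage and neuron markers in each Dnmt1 RIP library; bars are single libraries and start at 0. Both Het libraries were highest for the early-response genes and the fibroblast markers, while the macrophage sum was 5136 CPM in Het library 2 and 181 CPM in Het library 1.

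The other genes of the pathway were read in the same comparison. Of 31 other immediate early genes that passed the filter, 29 had a positive estimate for Het over WT, with a median of 1.11. None was called. The smallest p belonged to the AP-1 genes Junb (2.25 ± 0.51) and Fosb (2.78 ± 0.66) and to Cebpd (2.37 ± 0.81). For Hom over Het 4 of 31 were positive with a median of -1.53, led by Junb (-2.61 ± 0.51), the phosphatase gene Dusp1 (-1.63 ± 0.42) and Gadd45b (-2.84 ± 0.84). Ier5, a relative of Ier2, had 2.74 ± 0.67 for Het over WT and -2.61 ± 0.64 for Hom over Het. The Klf relatives did not share this pattern of estimates, since 5 of 10 were positive for Het over WT with a median of -0.03. Those with the smallest p were Klf12 (-1.57 ± 0.51), Klf9 (1.00 ± 0.44) and Klf5 (1.49 ± 0.75). Upstream regulators, among them serum response factor, the Elk factors, Creb1 and the MAP kinases, had 11 of 18 positive and a median of 0.22. The Egr corepressors Nab1 and Nab2 had estimates of opposite sign, between -0.25 and 0.22.

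Which of the genes the 2 antibodies recovered to different extents in fibroblasts was asked with genotype in the fit (6 Dnmt1 RIP and 4 m5C RIP libraries). In edgeR's quasi-likelihood test with Benjamini-Hochberg adjustment, 6 of the 10 were lower in the Dnmt1 RIP and 1 was higher, against 40.2% of 17124 genes called in either direction. The median was -1.74, against 0.22 over all genes, which became -1.40 and 0.56 with total counts alone. Klf2 ranged from 4.605 to 169 CPM with a median of 32.5 CPM in the Dnmt1 RIP, against 160.4, 319.6, 262 and 233 CPM in Het, Hom and both WT libraries of the m5C RIP. Its log2 fold change was -3.24 ± 0.61 (adjusted p = 0.000701), and the antibodies overlapped only through Het. Ier3 had 4.32 to 133 CPM, median 10.998, in the Dnmt1 RIP and 115, 132, 98.4 and 137 CPM in the m5C RIP in the same order (-2.86 ± 0.57, adjusted p = 0.000981). Klf6 had 12.6 to 302 CPM, median 30.2, against 220.4, 267, 218 and 218 CPM (-2.47 ± 0.55, adjusted p = 0.00232). Egr1 had 67.0 to 247 CPM, median 145, against 188, 528, 448 and 284 CPM (-1.64 ± 0.34, adjusted p = 0.00146). The Egr2 levels did not overlap between antibodies, with 8.74 to 33.5 CPM, median 22.5, in the Dnmt1 RIP and 37.5 to 95.1 CPM in the m5C RIP (-1.84 ± 0.32, adjusted p = 0.00035).

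Ier2 was also lower in the Dnmt1 RIP, with 5.83 to 169 CPM, median 53.8, against 67.0 to 254 CPM (-2.36 ± 0.66, adjusted p = 0.00997). Without the Hom m5C library this was -1.60 with an adjusted p of 0.155. Egr4 alone among the 10 was called higher in the Dnmt1 RIP, with 4.86 to 46.0 CPM, median 35.8, against 4.62 to 11.02 CPM (1.56 ± 0.47, adjusted p = 0.016). It lost the call without the Het m5C library (1.39, adjusted p = 0.0656). Klf4 (-0.97 ± 0.50, adjusted p = 0.129), Egr3 (0.37 ± 0.25, adjusted p = 0.231) and Nr4a1 (-0.22 ± 0.44, adjusted p = 0.695) were not called. Klf4 was called lower when low-count genes were kept (-1.06, adjusted p = 0.00805), and the sign of Nr4a1 changed with total counts alone (0.07). With the Hom counts subtracted from fibroblast m5C WT library 1, 6 members were again lower and 1 higher, although 4212 genes were called in place of 6878. All 12 macrophage markers and 10 of 11 fibroblast markers were lower in the Dnmt1 RIP, and all 11 neuron markers were higher, with medians of -3.81, -3.03 and 1.68. Their part in the members' differences was not tested.

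Other immediate early genes fell in the Dnmt1 RIP in 24 of 32 cases and were higher in 2, with a median of -1.81. Among them were Jun (-2.18 ± 0.27, adjusted p = 3.35e-05), the kinase gene Sgk1 (-1.90 ± 0.27, adjusted p = 8.58e-05), Myc (-2.05 ± 0.29, adjusted p = 9.01e-05) and Rhob (-2.19 ± 0.33, adjusted p = 0.000135). The other Nr4a genes were on the opposite side from Klf2 and Ier3. Nr4a2, needed for dopamine neurons, was higher by 1.87 ± 0.42 (adjusted p = 0.00222) and Nr4a3 by 2.16 ± 0.49 (adjusted p = 0.00243). Of 10 Klf relatives, 3 were called higher and 2 lower, with Klf16 at -1.99 ± 0.28 and Klf12 at 1.07 ± 0.36. Ier5 (-1.81 ± 0.53), Ier3ip1 (-2.06 ± 0.46) and the corepressor gene Nab2 (-2.41 ± 0.26) were called lower. Upstream regulators had 3 of 18 called higher and 8 lower. All these counts stand against 40.2% of 17124 genes called in either direction.

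Whether the Het difference was unlike between the antibodies was asked with an interaction term in the same 10 libraries. It contains the comparison known when the genes were chosen and is given as a description. Of the 10 genes 9 had a more positive Het difference in the Dnmt1 RIP, with a median of 2.16 on the log2 scale against 0.20 over all genes. Klf2 stood at 4.596 ± 1.00, Ier2 at 4.16 ± 1.07 and Ier3 at 4.07 ± 1.30, while Egr3 stood at -0.02 ± 0.66. The edgeR test called 0% of 17124 genes, with 574 under an unadjusted p of 0.05, and 12 genes with no filter on low counts. Members were among these 12, and nothing is read from that. Without Het Dnmt1 RIP library 2, Klf6 was at 0.08 and Ier3 at 1.78. With the Hom counts subtracted from fibroblast m5C WT library 1 the median was 1.79 with 8 of 10 positive and Egr2 at -0.55, and without that library it was 2.12 with 8 of 10 positive.

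Tissues were compared in the m5C RIP, with genotype in the fit (4 fibroblast and 3 cortex libraries). This comparison uses none of the Dnmt1 RIP libraries. That does not make it independent of the choice of the genes, since measured values of the series were known then. In edgeR's quasi-likelihood test with Benjamini-Hochberg adjustment, 6 of the 10 genes were higher in fibroblasts and 3 lower, against 63.8% of 14193 genes called in either direction. Ier3 had 115, 132, 98.4 and 137 CPM in Het, Hom and both WT fibroblast libraries, against 2.09, 3.74 and 0.763 CPM in Het, Hom and WT cortex. Its log2 fold change was 5.78 ± 0.33 (adjusted p = 2.48e-09), and the WT cortex level is 1 count. Ier2 had 67.0, 254, 208 and 141 CPM in fibroblasts against 4.88, 8.30 and 5.34 CPM in cortex (4.84 ± 0.31, adjusted p = 5.66e-09). Klf2 had 160.4, 319.6, 262 and 233 CPM against 12.5, 18.3 and 12.97 CPM (4.19 ± 0.23, adjusted p = 1.69e-09). For these 3 genes every fibroblast library exceeded every cortex library more than 8-fold. Klf6 had 218 to 267 CPM in fibroblasts against 39.7 to 60.6 CPM in cortex (2.34 ± 0.20, adjusted p = 8.1e-08). Egr2 had 37.5 to 95.1 CPM against 10.5 to 19.1 CPM (2.25 ± 0.31, adjusted p = 1.53e-05), and Klf4 had 48.1 to 59.2 CPM against 12.5 to 19.8 CPM (1.93 ± 0.25, adjusted p = 9.3e-06).

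The genes called lower in fibroblasts were Egr4, Egr3 and Nr4a1. The other Egr genes did not share this direction, since Egr2 was called higher and Egr1 was not called. Egr4 had 4.62, 11.02, 8.20 and 8.15 CPM in fibroblasts in the same library order, against 27.2, 29.1 and 79.4 CPM in cortex (-2.44 ± 0.34, adjusted p = 1.49e-05). Egr3 had 36.5, 56.5, 50.2 and 31.8 CPM against 127, 133 and 199.9 CPM (-1.68 ± 0.23, adjusted p = 1.09e-05). Neither gene overlapped between the tissues. Nr4a1 had 47.1 to 94.5 CPM in fibroblasts against 122 to 137 CPM in cortex (-0.70 ± 0.20, adjusted p = 0.00569). Its call was lost without the Het fibroblast library (-0.48, adjusted p = 0.0634), without the Het cortex library (-0.49, adjusted p = 0.0619) and with the Hom counts subtracted from fibroblast WT library 1 (-0.65, adjusted p = 0.162). Egr1, high in both tissues, had 188 to 528 CPM in fibroblasts against 220.3 to 354 CPM in cortex and was not called (0.34 ± 0.22, adjusted p = 0.19). Leaving out fibroblast WT library 1 kept 6 calls higher and 3 lower. Of the markers, 10 of 11 for fibroblasts and 12 of 12 for macrophages were called higher in fibroblasts and 11 of 11 for neurons lower, with median log2 fold changes of 4.87, 5.67 and -3.33, and their part in the members' differences was not tested.

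**Figure D4:**
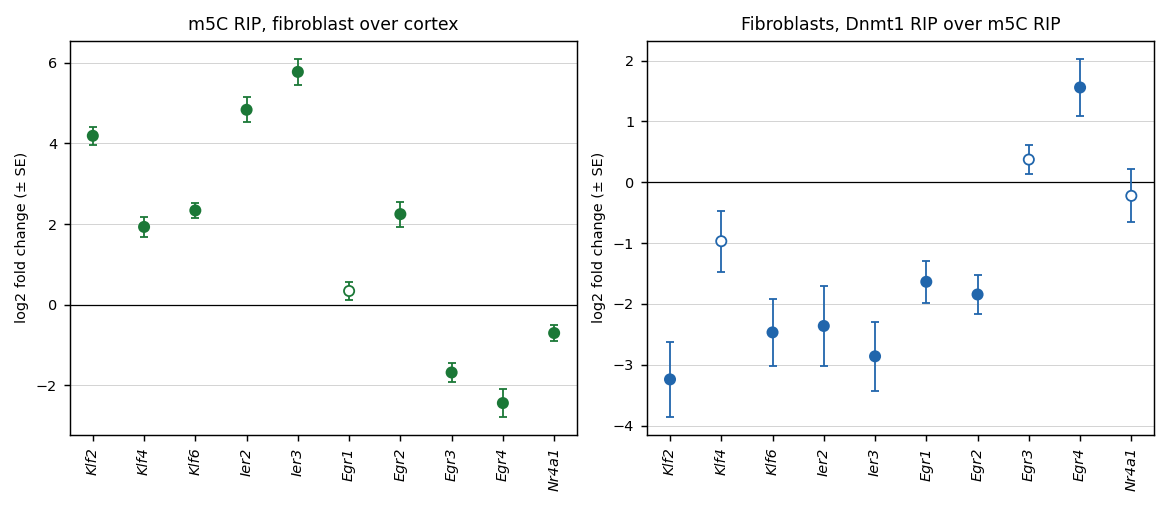
Log2 fold changes of the 10 genes in the m5C RIP of fibroblasts over cortex (left) and in the Dnmt1 RIP over the m5C RIP of fibroblasts (right); points are estimates, bars are 1 SE, and filled points have an adjusted p under 0.05. Egr4 was the one gene below 0 on the left and above 0 with a call on the right, while Ier3 was highest on the left (5.78) and Klf2 lowest on the right (-3.24).

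Of 32 other immediate early genes, 27 were called higher in fibroblasts and 4 lower. The matricellular gene Cyr61 (6.19 ± 0.31, adjusted p = 9.99e-10), the RNA decay factor gene Zfp36 (6.33 ± 0.37, adjusted p = 3.00e-09) and Cebpd (4.37 ± 0.29, adjusted p = 9.10e-09) were among the higher. Arc, a synaptic gene, was lower (-2.88 ± 0.18, adjusted p = 5.08e-09). The relatives Nr4a3 (-3.30 ± 0.28) and Nr4a2 (-1.57 ± 0.25) were called lower in fibroblasts, as Nr4a1 was, while Ier5l (2.54 ± 0.26) was higher, as Ier2 and Ier3 were. Among 11 Klf relatives, 3 were higher and 4 lower, including Klf9 (-1.76 ± 0.19) and Klf12 (-1.86 ± 0.34). Upstream regulators had 5 of 18 called higher and 7 lower, with Elk3 at 3.24 ± 0.29 and Mkl2, a cofactor of serum response factor, at -2.56 ± 0.19. Nab2 was higher in fibroblasts by 1.60 ± 0.21. Over all 14193 genes, 63.8% were called in either direction. The counts of Klf relatives and upstream regulators lie near that share, so nothing particular to them is read from these counts.

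In the m5C RIP, the genotypes were compared over both tissues with tissue in the fit. For Het over WT 9 of 10 members had a negative estimate, with a median log2 fold change of -0.56 against -0.05 over all genes, and of -0.45 without fibroblast WT library 1. Ier2 (-1.34 ± 0.33), Egr4 (-1.34 ± 0.40), Egr1 (-0.91 ± 0.27), Nr4a1 (-0.66 ± 0.24) and Klf2 (-0.62 ± 0.25) were the lowest. None was called by edgeR (adjusted p = 0.99 for each), and 0% of 14193 genes were, with 562 under an unadjusted p of 0.05. Egr1 stood at 188 CPM in the Het fibroblast library against 448 and 284 CPM in WT, and at 220.3 CPM in Het cortex against 354 CPM in WT cortex. Its ratio in cortex was 0.622 (95% exact binomial interval 0.538 to 0.719, counting error only). Egr4 in cortex was at 27.2 CPM in Het against 79.4 CPM in WT, a ratio of 0.343 (0.231 to 0.499). The Egr3 ratio in cortex was 0.635 (0.522 to 0.770). Ier2 in fibroblasts was at 67.0 CPM in Het against 208 and 141 CPM in WT, ratios of 0.322 and 0.475. In cortex Ier2 had 7 counts in Het and 7 in WT (ratio 0.914, 0.273 to 3.05), and its pooled value was -0.34 without the Het fibroblast library. The pooled value of Egr4 was -0.58 without the WT cortex library. Klf6 went the other way in cortex, with 60.6 CPM in Het against 39.7 CPM in WT (1.53, 1.07 to 2.20). A lone library per genotype has no replicate check, and these intervals do not cover differences between animals or cultures.

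For Hom over WT in the m5C RIP 6 of 10 members were positive, with a median of 0.17, and 0% of 14193 genes were called (125 under an unadjusted p of 0.05). The median depended on single fibroblast libraries. It was 0.49 (7 positive) with the Hom counts subtracted from WT library 1, 0.21 (6 positive) without WT library 1, -0.0038 (5 positive) without WT library 2 and -0.14 (4 positive) without the Hom fibroblast library. Egr4 was lowest at -0.90 ± 0.42, with 29.1 CPM in Hom against 79.4 CPM in WT cortex and 11.02 CPM in Hom against 8.20 and 8.15 CPM in WT fibroblasts. In fibroblasts the Hom library can be set against WT library 2 alone, since library 1 is not independent of it. There 8 of 10 members were higher in Hom, with Egr2 at 95.1 against 37.5 CPM (ratio 2.54, 1.72 to 3.77), Egr1 at 528 against 284 CPM (1.86, 1.60 to 2.16) and Ier2 at 254 against 141 CPM (1.80, 1.45 to 2.23). In Hom cortex, Egr3 was at 133 CPM against 199.9 CPM in WT (0.667, 0.564 to 0.788) and Klf6 at 58.5 CPM against 39.7 CPM (1.48, 1.07 to 2.07). With the Hom counts taken out of fibroblast WT library 1, 249780 counts remained, none of them in Egr4 or Ier3, 24 in Klf2 and 54 in Egr1. Macrophage markers summed to 13528 CPM in the Hom fibroblast library, against 10087 and 7222 CPM in WT, and their part in these ratios was not tested.

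Against input the m5C RIP was read in cortex first, where input was deep. In WT cortex Egr4 was at 79.4 CPM against 57.0 CPM in input (ratio 1.39, 95% exact binomial interval 1.10 to 1.75), Egr1 at 354 against 280.2 CPM (1.26, 1.13 to 1.40) and Egr3 at 199.9 against 163 CPM (1.23, 1.07 to 1.42). Klf2 (12.97 against 26.3 CPM; 0.494, 0.279 to 0.822) and Ier2 (5.34 against 13.2 CPM; 0.404, 0.156 to 0.880) were lower than in input. In Het cortex Egr4 was instead at 0.477 of input (0.332 to 0.669), and in Hom at 0.510 (0.387 to 0.665). Egr3 was at 0.780 of input in Het (0.660 to 0.917) and 0.820 in Hom (0.718 to 0.934). Egr1 was at 0.786 of input in Het (0.693 to 0.889) and 1.14 in Hom (1.04 to 1.25). Klf2 stayed below input in Het (0.478) and Hom (0.696), and Klf6 was above it in Het (1.44) and Hom (1.39) but not in WT (0.942, 0.681 to 1.28). Over both tissues edgeR called none of the members, against 0.0552% of 14501 genes. That fit combines inputs that differed in depth. Without the cortex input 7 members were called higher in the RIP and 1 lower, but 5813 genes were called in all, and the median of all genes was 5.86 against 5.62 for the members, so the count says nothing particular to them. Without the fibroblast input 1 of 10 was positive, with a median of -0.36 against -0.13 over all genes.

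In fibroblast input the 10 genes together had 40 counts. Egr3 was highest at 87.4 CPM, above 42.7 to 92.1 CPM in all but 1 of the Dnmt1 RIP libraries, followed by Klf6 at 30.6, Egr1 and Nr4a1 at 26.2 each and Klf2 at 4.37 CPM. Egr2, Egr4, Klf4, Ier2 and Ier3 were at 0 counts, which allows up to 13.1 CPM (3 counts), so no fold against this input is given for them. None of the members was called for the Dnmt1 RIP over input, against 4.99% of 16558 genes. Among those with counts in input, Egr1 had 1.46 ± 0.62 (adjusted p = 0.142) and Egr3 -1.30 ± 0.47 (adjusted p = 0.0975). Ier2, at 0 in input, was called with total counts alone, where 1183 genes were called in all, and without the filter, where 1944 were. Both of its calls rest on 0 counts in 1 input library, so nothing is read from them.

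Across the 6 Dnmt1 RIP libraries the genes varied together to different degrees. The libraries share tissue and antibody and differ in depth and dominant transcripts, so correlations of log2(CPM + 1) are descriptions. Klf6 and Ier3 had r = 0.874, Nr4a1 and Ier2 had 0.867, and Klf2 and Klf4 had 0.799. Within the Egr genes r lay at 0.889 for Egr1 with Egr4, 0.878 for Egr1 with Egr2, 0.885 for Egr2 with Egr4 and 0.857 for Egr3 with Egr4. Klf6, highest in Het library 2, and Nr4a1, highest in Het library 1, had 0.109, and Egr3 had -0.11 with Klf2 and -0.19 with Ier3. Over 11 fibroblast libraries Egr1 and Egr2 had r = 0.947 and Egr1 and Ier2 r = 0.920, values that include the step between antibodies. Among 10825 other genes with at least 10 counts in at least 8 libraries, those most like the sum of the 10 over 15 libraries were Tmem250-ps (r = 0.958), Trpc4ap (0.948), Tsc22d4 (0.946), Csnk1g2 (0.940) and Ptcd2 (0.937). These libraries fall into groups by antibody and tissue, which the correlation includes.

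**Figure D5:**
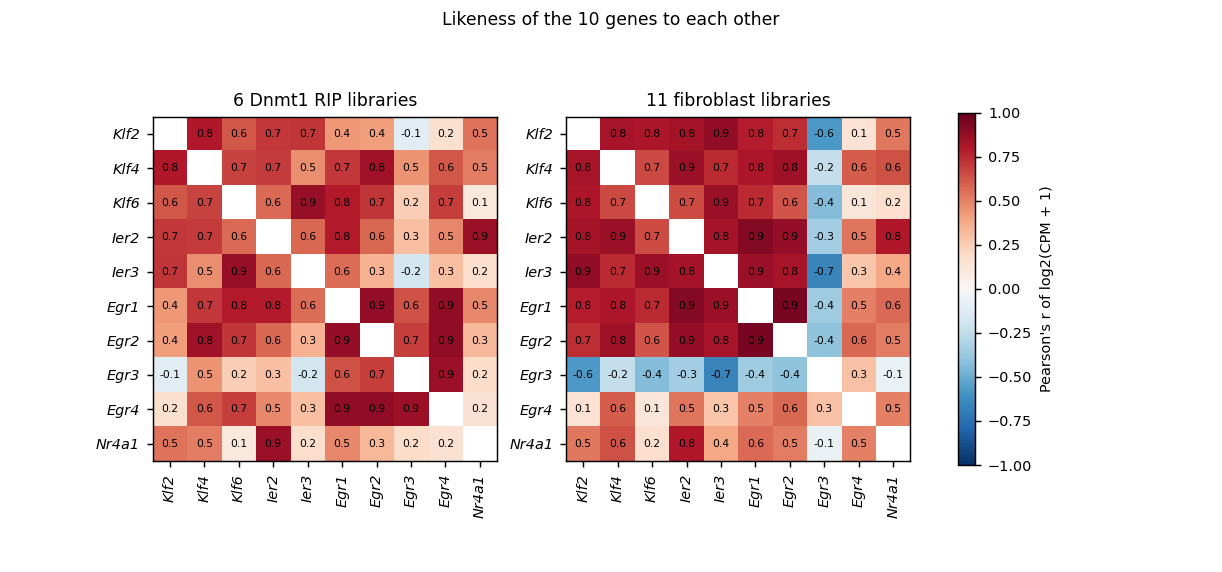
Pearson correlation of log2(CPM + 1) between the 10 genes over the 6 Dnmt1 RIP libraries (left) and 11 fibroblast libraries (right); colours run from -1 (blue) to 1 (red) and numbers are r to 1 decimal. Egr1 with Egr2 was 0.947 over the fibroblast libraries, while Egr3 was below 0 with each of the Klf and Ier genes there.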

How the data were processed

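RNA of 15 mouse libraries was recovered by RIP and sequenced. The deposited tables hold raw counts of reads per gene, per the file headers and values, with 1 table per library. Per the submitters' processing notes, Trim Galore 0.4.1, HISAT2, featureCounts and the mm10 genome were used. For HISAT2 and featureCounts no version was stated, nor was the annotation or strandedness of counting (not given in the sources used here). Entries in no gene made up 89.9% to 96.2% of the entries in the 6 tables that hold them and were left out of totals and tests.

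CPM was computed as counts over a library's total in genes, and intervals at the 95% level cover counting error only. Lengths and positions came from GENCODE M21 (30464 of 31017 symbols matched), and upstream sequences from RefSeq (GRCm38.p6). Klf4 shared 0.263% of its 50-base words with Gm48640. Comparisons used edgeR 4.0.16 in R 4.3.3 (quasi-likelihood test, filterByExpr with a minimum count of 10 and minimum total of 15, TMM, Benjamini-Hochberg adjustment over all genes, threshold 0.05). DESeq2 1.42.0 was an alternative. Alternatives were other scaling, no filter, leaving out each library, the replicate block and subtraction of the Hom counts from fibroblast m5C WT library 1. The scripts were tested on simulated counts. For Het over WT in the Dnmt1 RIP, 16% of 4-fold and 84% of 16-fold changes were recovered. For Dnmt1 RIP over input these were 3% and 34%, so real changes could go uncalled in both. The other simulated comparisons recovered 36% to 91% of 4-fold changes. P-values measure only the spread between libraries, which may be technical, since separate animals or cultures are not stated. The labels do not say whether library numbers mark a batch. Deviations of libraries with the same number had r = 0.017, 0.170 and 0.074 over 13484 genes, which cannot show that they mark none. Macrophage markers summed higher in library 2 than in library 1 of the Dnmt1 RIP in Het, Hom and WT alike.

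The 10 genes and the gene lists were chosen with earlier results of these data known. Whether these results included the comparisons of antibodies and tissues is not known, so the adjusted p-values there may not be independent of the choice. From each list up to 4 called genes with the smallest p are named, or up to 3 where none was called, and the 5 genes most like the summed level.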

Additional observations from a re-analysis of the deposited data

Results flagged for a closer look

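For 5 of the 10 genes the Hom m5C library lay above both WT libraries in fibroblasts and below WT in cortex. The difference of the log2 ratios of Hom over WT, fibroblast minus cortex, was 1.88 for Egr4 (0.43 in fibroblasts and -1.45 in cortex) and 1.05 for Egr3 (0.46 and -0.59). It was 1.00 for Egr2 (0.76 and -0.24), 0.74 for Klf4 (0.20 and -0.53) and 0.68 for Egr1 (0.53 and -0.15). The difference between the tissues was not tested, since cortex has 1 library per genotype. These fibroblast ratios use the mean of both WT libraries. WT library 1 holds at least the Hom count in every gene, so it is not independent of the Hom library. Egr4, for example, has 8 counts in both, so its lower CPM in WT library 1 follows from the larger total alone. Against WT library 2 alone the fibroblast ratio of Hom over WT was 1.35 for Egr4 (95% exact binomial interval 0.464 to 3.81) and 1.19 for Klf4 (0.787 to 1.79), both with an interval that includes 1. In cortex the interval includes 1 for Egr1 (0.902, 0.803 to 1.01), Egr2 (0.849, 0.501 to 1.46) and Klf4 (0.691, 0.401 to 1.20). Egr3 alone had both intervals off 1, with 1.78 in fibroblasts (1.12 to 2.83) and 0.667 in cortex (0.564 to 0.788), and these cover counting error only. The 5 genes come from 20 pairs of gene and genotype looked at, and none was for Het.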

How the results depend on the processing

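With other settings the number of genes called changed as follows. For Het over WT in the Dnmt1 RIP it was 1 with total counts alone, 192 with no filter, 26 with DESeq2 and 0 to 38 when 1 library was left out. For Hom over WT it was 4 with total counts, 13 with no filter and 0 throughout when 1 library was left out. For Hom over Het it was 113 with no filter, 15 with DESeq2 and 0 to 35 when leaving out 1 library. For Dnmt1 RIP over m5C RIP it was 4212 with the Hom counts subtracted and 4662 to 7037 when leaving out 1 library. For the interaction it was 12 with no filter and 0 to 6. For fibroblast over cortex it was 5992 with the Hom counts subtracted and 7474 to 9026. In the m5C RIP it was 10 with no filter for both Het over WT (0 to 9 when leaving out 1 library) and Hom over WT (0 to 17). For m5C RIP over input it was 37 with RLE scaling, 2 with total counts, 211 with no filter, 185 with DESeq2, 47 with the Hom counts subtracted and 2 to 5813 when leaving out 1 library. For Dnmt1 RIP over input it was 1944 with no filter, 265 with DESeq2 and 0 to 833.

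In the comparisons between antibodies, tissues and m5C genotypes and with input, members changed sign in these cases, and the cause was not tested. With total counts alone, Nr4a1 was at 0.074 for Dnmt1 over m5C RIP, Ier3 at 0.0025 for m5C Het over WT and Klf6 at 1.00 for Dnmt1 RIP over input. With the Hom counts subtracted, Ier3 was at 0.46 for m5C Het over WT and Egr3 at 0.011 for Hom over WT. Nr4a1 over m5C input was at -0.031 with no filter and -0.034 with DESeq2. Leaving out 1 library gave -0.72 to 0.058 for Nr4a1 between antibodies, and for m5C Het over WT -0.26 to 0.16 for Ier3 and -0.058 to 0.38 for Klf6. For m5C Hom over WT it gave -0.24 to 0.46 for Egr1, -0.035 to 0.62 for Egr2, -0.48 to 0.27 for Egr3, -0.37 to 0.082 for Klf4 and -1.34 to 0.17 for Egr4. For m5C RIP over input it gave -0.052 to 2.96 for Egr1, -0.35 to 9.43 for Egr2, -0.62 to 6.19 for Egr4, -0.99 to 5.04 for Klf2, -0.25 to 9.15 for Klf4, -0.38 to 0.77 for Nr4a1, -1.35 to 10.64 for Ier2 and -1.38 to 10.4 for Ier3. Klf6 for Dnmt1 RIP over input ran from -0.85 to 0.24. Fitted values against the fibroblast input rest on 0 counts for 5 genes and are neither fold changes nor bounds. Signs also changed in the descriptions of the Dnmt1 RIP genotypes when 1 library was left out. For Het over WT, Egr2 ran from -0.15 to 0.56 and Egr4 from -0.99 to 0.25. For Hom over Het, Klf6 ran from -2.47 to 0.74, Ier3 from -2.38 to 0.50 and Egr4 from -1.47 to 0.65. For Hom over WT the sign changed for every member but Klf2 and Ier3, with Klf4 from -3.53 to 1.64 and Ier2 from -1.16 to 1.67, and with total counts alone Egr3 was at -0.41. In the interaction Egr2 (-0.21 to 0.85), Egr3 (-0.41 to 0.26) and Egr4 (-0.20 to 1.24) changed sign.

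Whether the library numbers mark a batch is not stated, and with the replicate block 0 genes were called in each Dnmt1 RIP comparison. The members' medians were then 1.64 for Het over WT (8 of 10 positive), 0.04 for Hom over WT (7 of 10) and -1.19 for Hom over Het (1 of 10). The 217173 counts of WT Dnmt1 RIP library 1 and the 228852 counts of fibroblast input limit what could be detected for Klf2, Klf4 and Ier3.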
